A study of Mus musculus with 8 samples.

Results

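The genes described are receptor chains through which macrophages sense interleukin-6, interleukin-10, interleukin-4 and related cytokines. They are the probe sets whose number is the Entrez gene number of a listed chain and to which the platform annotation gives that chain's symbol. Of 9 listed chains, 8 met both conditions, out of 24011 genes in all, and the ninth, which the annotation leaves unnamed, was not analysed here. The 8 were Il6ra (Entrez gene 16194), Il6st (16195), Osmr (18414), Il10ra (16154), Il10rb (16155), Il4ra (16190), Il13ra1 (16164) and Il21r (60504).

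The cells were mouse macrophages grown for 7 days from bone marrow of wild-type mice aged 8 to 10 weeks, a strain not being named. Medium conditioned by L cells supplied M-CSF, on which macrophage formation depends. After reseeding, 4 samples were given hepcidin at 10 µg/ml for 1 h and 4 were given PBS. Hepcidin, a peptide hormone made by the liver, binds and removes the iron exporter ferroportin. RNA of each sample was read on 1 Affymetrix whole-transcript array. Titles carry a replicate number from 1 to 4 in either group, and nothing in the labels tells whether it marks an animal or a culture. The p-values thus cover the spread among these 8 samples alone, and that spread may be technical.

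These receptors have no kinase of their own. A cytokine brings its chains together, JAK kinases bound to the chains phosphorylate them and each other, and STAT transcription factors dock and move to the nucleus. IL-6 and IL-10 act mainly through STAT3, and IL-4 and IL-13 through STAT6. In macrophages IL-10 restrains inflammatory genes, and IL-4 and IL-13 drive the state called alternative activation. Each receptor needs a ligand-binding chain and a signalling partner, so the level of either chain can bear on the response.

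All 7 measured macrophage markers, among them Cd68, Csf1r and Adgre1, had log2 values of 8.31 or more with PBS. As a guide to background, 23 markers of endothelium, B cells, T cells and NK cells were used, with a median log2 value of 4.05 and a 90th percentile of 6.22. The brightest of them, the endothelial receptor gene Kdr, stood at 7.53, so values up to that height do not by themselves show expression. Probes differ in brightness, and levels of different genes are therefore not ranked. Samples with the same number resembled each other. Both arrays numbered 1 had low values of neutrophil and precursor markers, with a list mean of 4.40 with hepcidin and 4.60 with PBS, against 5.45 to 5.91 and 5.54 to 5.89 on the other arrays of these groups. The number of arrays limits the precision.

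The comparison of hepcidin with PBS asked whether 1 h of hepcidin altered the mRNA of these chains. No chain passed limma's adjusted p of 0.05 over all genes, where the share called was 0% of 24011 genes. At an unadjusted p under 0.05 limma gave 0 of 8 chains, against 2.86% of all genes. With the replicate number as a block it gave 1, Il10ra, against 4.91% of all genes, and again 0 after adjustment, against 0.00416% of all genes. The groups overlapped for all 8 chains, and 1.88% of all genes had groups that did not. The median log2 change was 0.000076 over the 8 chains and 0.00095 over all genes.

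**Figure D1:**
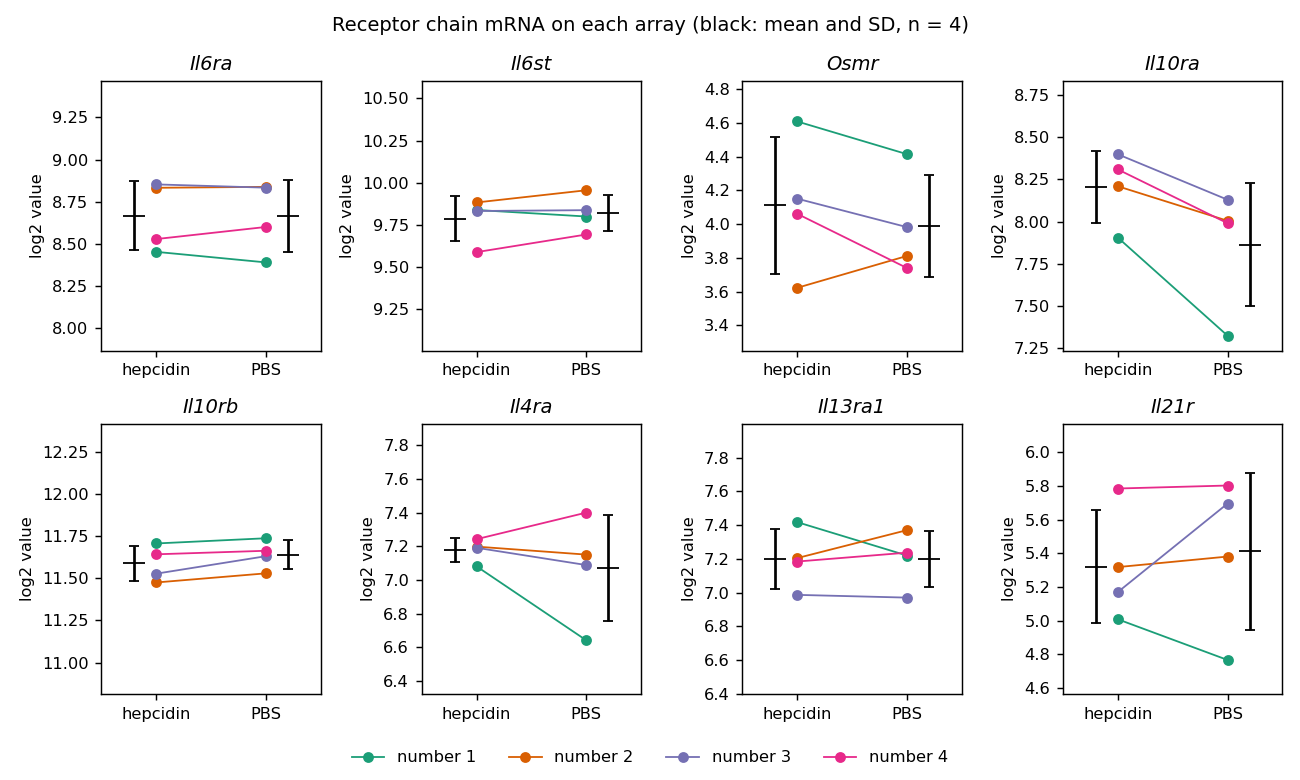
Log2 value (vertical axes, each spanning the same height) of 8 receptor chains on the 4 hepcidin arrays (left) and the 4 PBS arrays (right). Lines join arrays with the same number, and black marks give the mean and SD of each group (n = 4). Lines slope the same way in all 4 pairs for Il10ra, higher with hepcidin, and for Il10rb, lower by at most 0.10.

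The IL-10 receptor is made of Il10ra, the chain that binds IL-10 and carries the docking sites for STAT3, and Il10rb, a partner chain that IL-22 and type III interferons also use. Il10ra had log2 values of 7.91, 8.21, 8.40 and 8.31 on hepcidin arrays 1 to 4, against 7.32, 8.01, 8.13 and 7.99 on PBS arrays 1 to 4. On 3 hepcidin arrays it lay above every PBS array, and the hepcidin array numbered 1 lay below 3 of the PBS arrays. The mean was 8.21 ± 0.21 with hepcidin and 7.86 ± 0.36 with PBS (SD, n = 4 each).

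The log2 difference in Il10ra was 0.34 ± 0.18 (SE, limma), a ratio of 1.27 with a 95% confidence interval from 0.966 to 1.67. It had an adjusted p of 1.00 over all genes and an unadjusted p of 0.0808 in limma. Within pairs 1 to 4 the differences were 0.58, 0.20, 0.27 and 0.32. Il10ra was thus higher with hepcidin in 4 of 4 pairs, as were 5.69% of all genes. With the replicate block in limma the SE was 0.08, the unadjusted p was 0.00401 and the adjusted p was 0.784. That unadjusted p ranked 112 among the 24011 genes, and the one without the block ranked 1106.

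Pair 1 gave the widest gap in Il10ra, since the PBS array numbered 1 was low. Without that array the log2 difference was 0.16, and without the hepcidin array numbered 1 it was 0.44. Without both arrays numbered 1 it was 0.26 ± 0.09 (SE). The macrophage marker list was also low on both arrays numbered 1, with a mean of 10.9 with hepcidin and 10.8 with PBS, against 11.3 to 11.4 on the other arrays of both groups. Its part in the Il10ra result was not tested.

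Il10rb was bright and even. Its log2 values were 11.71, 11.48, 11.53 and 11.64 with hepcidin, against 11.74, 11.53, 11.63 and 11.66 with PBS. The hepcidin array was the lower one in 4 of 4 pairs, as for 5.92% of all genes, by 0.03, 0.05, 0.10 and 0.02. The log2 difference was -0.05 ± 0.08 (SE), with a 95% interval from -0.24 to 0.14. Whether the changes of the 2 IL-10 receptor chains differ was not tested.

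**Figure D2:**
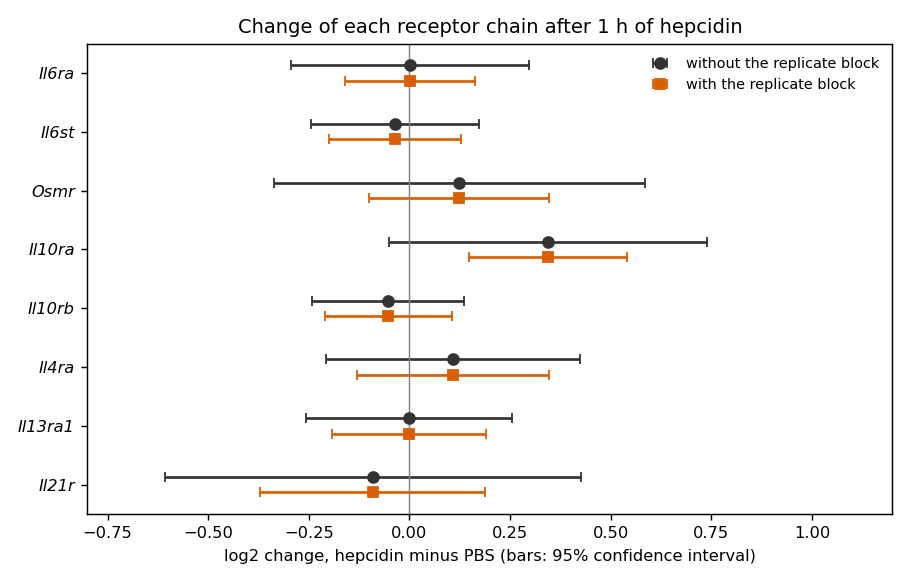
Log2 change (hepcidin minus PBS, horizontal axis) of each receptor chain with its 95% confidence interval from limma, without the replicate number as a block (circles) and with it (squares), before any adjustment for the number of genes. With the block the interval of Il10ra runs from 0.15 to 0.54, and the other 7 intervals hold 0 in both fits.

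The IL-6 receptor joins Il6ra, which binds IL-6, to Il6st, which encodes gp130, the signalling chain shared by the whole IL-6 family. Il6ra had log2 values of 8.45, 8.83, 8.85 and 8.53 with hepcidin, against 8.39, 8.84, 8.83 and 8.60 with PBS. The values followed the replicate number closely and the treatment hardly at all. The difference was 0.0011 ± 0.13 (SE), with an SE of 0.07 under the replicate block, and the pairs differed by 0.06, -0.01, 0.02 and -0.07. The ratio was 1.00 with a 95% interval from 0.815 to 1.23.

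Il6st had log2 values of 9.84, 9.88, 9.83 and 9.59 with hepcidin, against 9.80, 9.96, 9.84 and 9.69 with PBS. The arrays numbered 4 were the lowest of each group. The difference was -0.04 ± 0.09 (SE), and the ratio of 0.976 had a 95% interval from 0.844 to 1.13.

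Osmr encodes the chain that pairs with gp130 to bind oncostatin M, and it is best known from stromal cells such as fibroblasts. Its log2 values were 4.61, 3.62, 4.15 and 4.06 with hepcidin, against 4.42, 3.81, 3.98 and 3.74 with PBS. Every value was under 6.22, where array ratios tend to be compressed. Fibroblast markers were in the same range: none of 8 was above 6.22 with PBS, and the list mean was 4.32 to 4.64 with hepcidin and 4.39 to 4.49 with PBS. The Osmr difference was 0.12 ± 0.21 (SE), higher in 3 of 4 pairs, and it was -0.04 without the hepcidin array numbered 1.

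Il4ra encodes the chain that binds IL-4 and carries the docking sites for STAT6. With Il13ra1 it forms the receptor that answers both IL-4 and IL-13. Il4ra had log2 values of 7.08, 7.20, 7.19 and 7.24 with hepcidin, against 6.64, 7.15, 7.09 and 7.40 with PBS. The hepcidin arrays lay close together inside the range of the PBS arrays, whose spread came from a low number 1 and a high number 4.

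The mean of Il4ra was 7.18 ± 0.07 with hepcidin and 7.07 ± 0.32 with PBS (SD, n = 4 each), a difference of 0.11 ± 0.14 (SE). The pairs differed by 0.44, 0.05, 0.10 and -0.16. Without both arrays numbered 1 the difference was -0.0026, and without the PBS array of that number it was -0.03. Both group means were under the value of the Kdr marker, so the height of this probe set does not by itself show expression.

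Il13ra1 encodes the low-affinity IL-13 chain. Like Il4ra, it lay under the Kdr value. It had log2 values of 7.42, 7.20, 6.99 and 7.18 with hepcidin, against 7.22, 7.37, 6.97 and 7.24 with PBS. Pair 1 was higher by 0.20 and pair 2 lower by 0.17, with 0.02 and -0.05 in pairs 3 and 4. The difference over all arrays was -0.00097 ± 0.12 (SE), with a 95% interval from -0.26 to 0.26.

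Il21r encodes the chain that binds IL-21, a cytokine made by T helper cells. Its log2 values were 5.01, 5.32, 5.17 and 5.78 with hepcidin, against 4.77, 5.38, 5.70 and 5.80 with PBS. All 8 were under 6.22. The T and NK cell marker list had a mean of 3.95 to 4.13 with hepcidin and 4.03 to 4.18 with PBS, and none of its 8 measured genes was above 6.22 with PBS.

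The difference in Il21r was -0.09 ± 0.23 (SE), the widest error of the 8 chains. Pair 3 differed by -0.53, pair 1 by 0.24, and pairs 2 and 4 by -0.06 and -0.02. Without both arrays numbered 3 the value was 0.05, and it was also above 0 without the hepcidin array numbered 1 (0.013), the PBS array numbered 3 (0.0036) or the PBS array numbered 4 (0.039).

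In each receptor chain the replicate number took a larger share of the variance than treatment. The number has more levels than treatment, so its share tends to be larger even where neither matters. Of the variance over the 8 arrays, the number accounted for 64.1% in Il10ra, 65.8% in Il4ra and 80.3% to 98.2% in the other 6 chains, the highest in Il6ra. The median was 55.7% over all genes and 74.8% over the 9274 genes with a mean of at least 6. Treatment accounted for 30.6% in Il10ra, 8.97% in Il10rb and 6.91% in Il4ra. It accounted for 3.85% or less in the other 5, against a median of 5.12% over all genes.

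Number 1 was the most distinct. Il6ra, Il10ra, Il4ra and Il21r had their lowest value of both groups there, which held for 13.2% of all genes. Osmr and Il10rb had their highest value of both groups there, as did 13.2% of all genes. The Il21r value of number 1 was below the mean of the other 3 by 0.42 with hepcidin and by 0.86 with PBS, and the Osmr value was above by 0.66 and 0.57. The neutrophil and precursor markers were low on the same arrays, and their part in these differences was not tested.

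**Figure D3:**
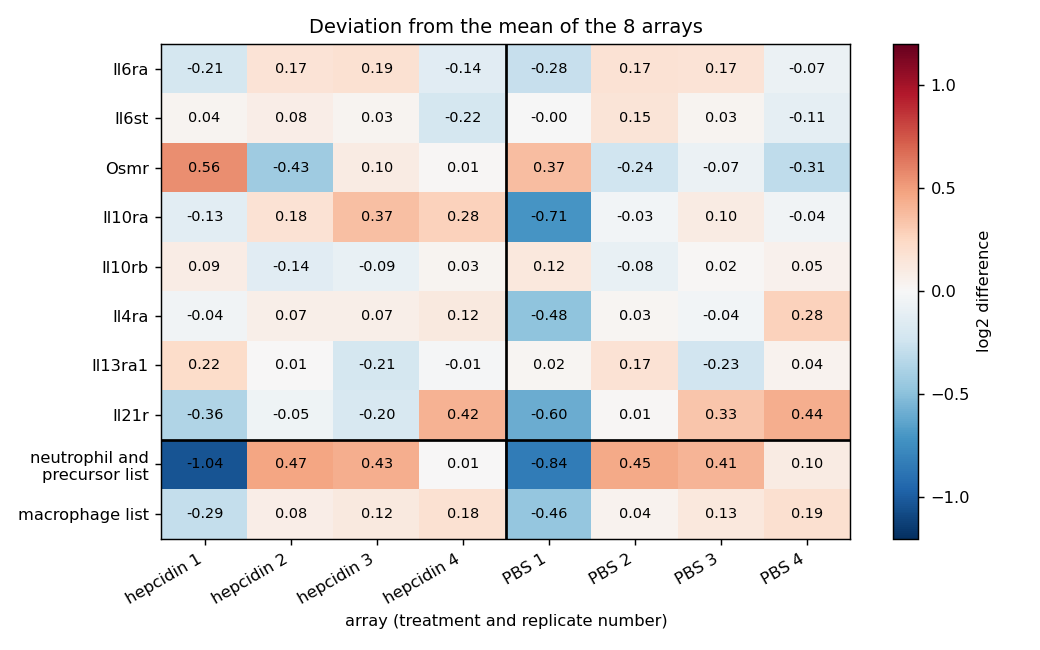
Log2 difference of each array from the mean of the 8 arrays for 8 receptor chains and for the mean of 2 marker lists, hepcidin arrays left and PBS arrays right. The columns of number 1 carry the low values of Il10ra, Il4ra, Il21r and the neutrophil and precursor list, and the high values of Osmr.

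Il4ra and Il21r lie next to each other on mouse chromosome 7, with no annotated gene between them in the RefSeq table of GRCm38.p6. In both groups both genes had their lowest value on number 1 and their highest on number 4. Number 1 was lowest in both groups for 13.2% of all genes, and number 4 was highest in both for 8.35%. The share of genes with both traits was not counted, and a link of this order to the position was not tested. The genes whose pattern over the 8 arrays was most like that of Il10ra were Hbegf, an EGF family growth factor gene (r = 0.968), Oaz1, which encodes an inhibitor of polyamine synthesis (0.968), and Prkaca, a catalytic subunit gene of protein kinase A (0.967). They were the top 3 of 9268 genes with a mean of at least 6. Without both arrays numbered 1 these correlations were 0.924, 0.808 and 0.813 over 6 arrays. For Il21r, the chain with the largest SD, they were the phosphatase gene Acp5 (0.971), the transcription factor gene Irf5 (0.955) and Parp10 (0.954), with 0.921, 0.903 and 0.877 without the arrays numbered 1. Picking the best of so many genes yields high values in any data, and the arrays share replicate numbers.

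The cytokines of these receptors and of related ones were mostly under the 90th percentile of the background markers. Of 22 ligand genes, which include ligands of receptors outside the 8 chains such as Il9 and Il15, 5 were above 6.22 with PBS, and the median PBS value was 4.001. Il6 averaged 3.002 ± 0.07 on the hepcidin arrays and 2.89 ± 0.10 on the PBS arrays, and Il10 averaged 3.63 ± 0.24 on the hepcidin arrays and 3.51 ± 0.19 on the PBS arrays (SD, n = 4 each). The log2 differences were 0.11 ± 0.08 and 0.13 ± 0.14 (SE). Il4 differed by -0.19 ± 0.11 and Il13 by -0.03 ± 0.12, at PBS values of 3.40 and 4.84.

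Ligand genes past the adjusted p of 0.05 in limma numbered 0, and 2 were higher and 1 lower at an unadjusted p under 0.05. The shares of all genes were 1.33% higher and 1.53% lower. Il27, a subunit gene of a cytokine that signals through gp130, had log2 values of 6.68, 6.64, 6.80 and 6.93 with hepcidin, against 6.41, 6.49, 6.66 and 6.28 with PBS. Its groups overlapped, as the second hepcidin array was under the third PBS array. Il27 was higher in 4 of 4 pairs, as were 5.69% of all genes. The difference was 0.30 ± 0.10 (SE), and the mean PBS value of 6.46 was under that of the Kdr marker. The other genes, both at PBS values under 6.22, were Il9 (0.31 ± 0.09) and Cntf, which encodes a gp130 cytokine of glia and was lower (-0.32 ± 0.13).

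The wider set of related receptor chains did not pass either. Of 29 measured, 0 passed the adjusted threshold in limma, and 1 was higher at an unadjusted p under 0.05, against 1.33% of all genes. This was the interferon lambda receptor gene Ifnlr1 (0.20 ± 0.08, SE), at a PBS value under 6.22. The median log2 change of the 29 was 0.04, and 22 were above 0, against 50.4% of all genes. Ifngr2, the signalling chain of the interferon gamma receptor, differed by 0.14 ± 0.09 and Il15ra, which presents IL-15, by 0.13 ± 0.08.

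Of the kinases and transcription factors below the receptors, 10 were measured and 0 passed, with none at an unadjusted p under 0.05 in limma. The share of all genes at such a p was 2.86%. The median change was 0.05. Jak1, the kinase bound to many of these chains, differed by 0.02 ± 0.09, Stat3 by 0.07 ± 0.08 and Stat6 by 0.09 ± 0.13 (SE). Jak3 differed by 0.16 ± 0.15 and Stat5b by 0.10 ± 0.10.

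Among 18 genes that inhibit the pathway or shed its receptors, 0 passed the adjusted threshold and Socs3 alone was higher at an unadjusted p under 0.05 in limma. Of all genes, 1.33% were higher at such a p. Socs3 encodes the feedback inhibitor that binds gp130. Its log2 values were 5.71, 5.62, 5.71 and 5.58 with hepcidin, against 5.45, 5.39, 5.33 and 4.90 with PBS. Every hepcidin array was above every PBS array, as for 0.845% of all genes, at a height within the background range. Adam17, the protease that sheds the IL-6 receptor and TNF, differed by 0.14 ± 0.08 (SE) and Socs2 by 0.12 ± 0.08. Of the 18 genes, 4 were higher in 4 of 4 pairs, Adam17 and Socs2 among them, against 5.69% of all genes.

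**Figure D4:**
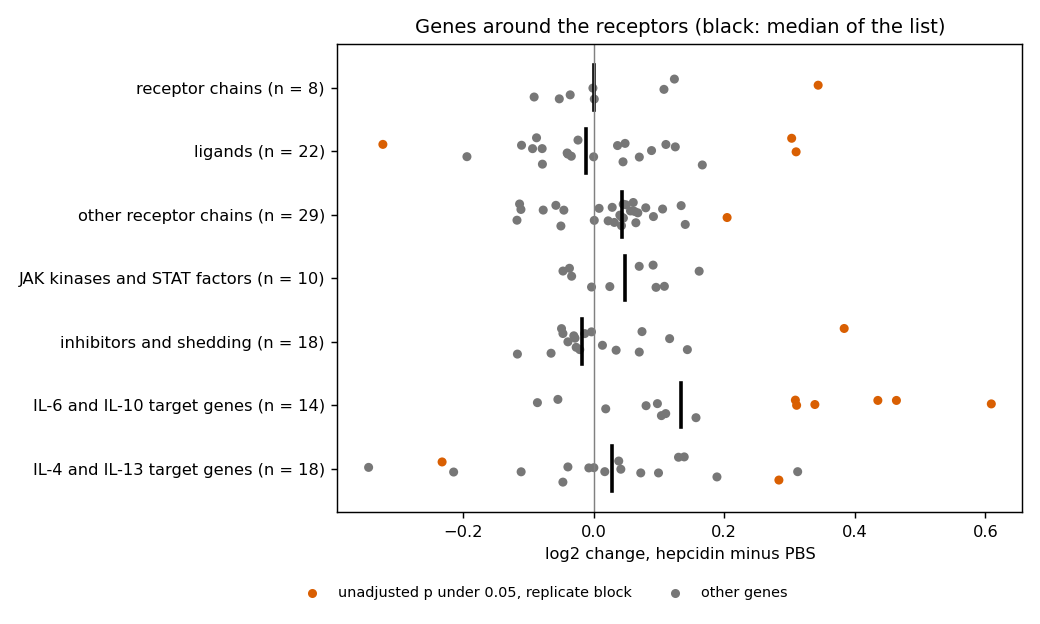
Log2 change (hepcidin minus PBS, horizontal axis) of the receptor chains and of genes around them, 1 point for each gene, with the median of each list as a black bar. Orange points have an unadjusted p under 0.05 in limma with the replicate block. The medians lie between -0.02 and 0.13, the highest in the IL-6 and IL-10 target list.

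Genes that IL-6 and IL-10 are known to induce had a median log2 change of 0.13, against 0.00095 over all genes. Of 14 measured, 0 passed the adjusted threshold in limma. The list was chosen with earlier results of these data known, so the counts below describe it and do not test it. At an unadjusted p under 0.05 there were 5 higher and 0 lower, against 1.33% and 1.53% of all genes, and 8 were higher in 4 of 4 pairs, against 5.69% of all genes. With the replicate block 6 were higher and 0 lower at an unadjusted p under 0.05 in limma, against 2.34% and 2.57% of all genes. The sixth was Saa3, an acute-phase gene whose difference of 0.31 had an SE of 0.62 without the block and 0.08 with it. The kinase gene Pim1 had log2 values of 9.60, 9.49, 9.47 and 9.40 with hepcidin, against 9.08, 9.16, 8.71 and 9.16 with PBS. Its groups did not overlap, and neither did those of Etv3. Of the 14 genes 2 were thus higher without overlap, against 0.845% of all genes. Pim1 differed by 0.46 ± 0.11, the IκB family gene Bcl3 by 0.61 ± 0.18 and the AP-1 gene Junb by 0.44 ± 0.14 (SE). The other 2 were the transcription factor genes Cebpb (0.34 ± 0.13) and Etv3 (0.31 ± 0.12), which were named after their values were seen, as was Saa3. The PBS means of Bcl3, Etv3 and Saa3 were under the value of the Kdr marker. Bcl3, Junb and Cebpb are also known to answer to NF-kB or to early MAP kinase signals. Tnf, an NF-kB target outside these lists, differed by 1.28 ± 0.14 (adjusted p 0.0762 in limma). Which signals lay behind the differences of these genes was not tested.

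Genes that IL-4 and IL-13 are known to induce had a median change of 0.03. Of 18 measured, 0 passed the adjusted threshold in limma. At an unadjusted p under 0.05 limma gave 1 higher and 0 lower, against 1.33% and 1.53% of all genes. The higher one was Ppargc1b, which encodes a coactivator of mitochondrial genes, at values under 6.22 (0.28 ± 0.10, SE). The lectin gene Clec10a differed by 0.31 ± 0.17 and the chemokine gene Ccl24 by -0.23 ± 0.11, both at PBS values under 6.22. With the replicate block, limma gave 1 higher and 1 lower at an unadjusted p under 0.05, the lower one being Ccl24, against 2.34% and 2.57% of all genes. The counts for the ligands, the related receptor chains, the kinases with the STAT factors, and the inhibitors were the same with the block as without it.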

How the data were processed

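Per the submitters' processing notes, the deposited log2 values come from RMA in affy 1.36.1. No source used here gives the probe set definition or genome build. Values were used as deposited. The platform annotation named 24015 of 24973 probe sets, all with a number equal to the Entrez gene number. The brightest probe set was kept for each symbol, which left 24011 genes. A listed chain whose probe set it does not name is not reported here.

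Groups and numbers came from the sample titles. Both groups entered one fit over all genes in limma 3.58.1 under R 4.3.3 (lmFit, eBayes), and Benjamini-Hochberg adjusted p-values under 0.05 passed. The fits were tested on simulated data. Changes are hepcidin minus PBS.

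After subtraction of the group means, arrays of equal number correlated across genes at 0.344 to 0.548, and arrays of unequal number at -0.356 to 0.124. The numbers were therefore taken to pair the arrays, by the titles and this check. All correlations at equal number were above the bound of 0.1, as was the highest at unequal number (0.124). The fit without the block stayed the main one, and SEs and intervals are from it unless the block is named. It ignores the pairing. The median residual SD over all genes was 0.154 without the block and 0.119 with it, and every chain had a smaller SE with it. The block changed no call among the chains and lists.

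The receptor chains, 6 lists of genes around them (111 of 113 measured) and 7 marker lists were chosen with earlier results of these data known. Named genes were all chains, the 3 of each list with the smallest unadjusted p, and a preset few. Pattern searches covered the chain with the smallest p and that with the largest SD. Other settings were 3 normalizations, 2 filters on dim genes, all probe sets, other variance models, array weights, the replicate block and leaving out arrays. Figures were made in Python 3.11.15 (pandas 2.3.3, matplotlib 3.10.9).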

Additional observations from a re-analysis of the deposited data

How the results depend on the processing

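No receptor chain passed the adjusted threshold under any of 26 other settings, all planned. Of 205 chain values under them, 32 changed sign. The replicate block, the filters, the use of all probe sets and the other variance models leave the difference itself unchanged. These settings could not change a sign, and leaving out a number gave the same difference with the block as without it. Il10ra stayed above 0 in all 26 (0.29 to 0.36, or 0.16 to 0.44 with arrays left out). Il6ra was at -0.013 with renewed quantile normalization, -0.011 with cyclic loess and -0.016 with array weights, and Il13ra1 at 0.015 with median centring. With arrays left out, values ran from -0.091 to 0.072 for Il6ra, -0.079 to 0.030 for Il6st, -0.042 to 0.29 for Osmr, -0.035 to 0.22 for Il4ra, -0.077 to 0.070 for Il13ra1 and -0.31 to 0.054 for Il21r. They ran from -0.115 to 0.062 for Il13, -0.041 to 0.061 for Jak1, -0.0036 to 0.20 for Stat6, -0.27 to 0.16 for Acp5, -0.072 to 0.135 for Irf5, -0.18 to 0.061 for Parp10 and -0.256 to 0.838 for Saa3, below 0 without the hepcidin array numbered 1. Over all genes limma called 0, against 1 with the replicate block as a fixed term, 5 as a random term and 3 with a filter at a mean of 6, and 0 to 2 with arrays left out. The causes were not tested. Tnf passed with the random block, with that filter and without the hepcidin array numbered 2. With the fixed block its adjusted p in limma was 0.105. The highest adjusted p of Tnf in limma was 0.118 over the settings that keep all arrays and 0.999977 with arrays left out. The replicate block changed no call among the chains and the 6 lists. Every value of Osmr and Il21r was under 6.22, the 90th percentile of the background markers, which limits what their ratios can show.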
